A study of Mus musculus with 2 samples.

Results

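The C-type lectin receptors of the NKG2 and NKR-P1 families were followed through 1 single-cell RNA-seq pool of mouse spleen. The 9 genes were chosen by name out of 32285 in the table: Klrk1 (NKG2D), Klrd1 (CD94), Klrc1 (NKG2A), Klrc2 (NKG2C), Klre1 (NKG2I), Klrb1c (NKR-P1C, the NK1.1 antigen), Klrb1b (NKR-P1B), Klrb1f (NKR-P1F) and Klrg1, and each was found as 1 row of the table. The cells came from C57BL/6 wild-type mice of 8 weeks that were all sensitized with ovalbumin (OVA) on days 0 and 10. Mice were then left untreated, given Standard therapy (OVA in PBS on days 20, 22 and 24 and OVA in Alum on days 40 and 60), or given DCIR2-Fp therapy (an OVA fusion protein directed to the DCIR2 receptor of dendritic cells, on days 20, 22 and 24). Mice were challenged with OVA and spleens taken on day 80, and the cells of every mouse were stimulated for 3 h with PMA and ionomycin, so no unstimulated cells were measured. CD45+ CD11b- and CD45+ CD11b+ fractions were mixed 1:1 and sequenced as 1 pool of the 3 conditions with 4 hashtags. The labels pair no hashtag with a condition, so conditions were not compared, and all values below describe cells of 1 pooled sample without replicates. NK cells can carry CD11b on their surface, so the sort can change their number and their mix of stages.

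These receptors sit mainly on NK cells and on some T cells, where they read ligands on neighbouring cells and add up to a signal for or against activation. Klrk1 is an activating receptor for stress-induced ligands of the Rae-1, H60 and Mult1 (Ulbp1) groups and signals through the adaptors Hcst and Tyrobp. Klrd1 pairs with the inhibitory chain Klrc1 or the activating chain Klrc2 to read the non-classical MHC molecule Qa-1 (H2-T23). Klre1 pairs with Klri1 or Klri2. Among the NKR-P1 receptors Klrb1b inhibits, Klrb1c and Klrb1f activate, and the known ligands are Clec2 proteins. Klrg1 is an inhibitory receptor for cadherins and marks mature NK cells and effector T cells. Ifng encodes interferon-gamma, the cytokine that stimulated NK and T cells release.

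Cells were assigned by a few transcripts only. Among 16829 barcodes, 16325 passed a floor of 200 detected genes and a ceiling of 10% for the share of mitochondrial UMIs, where a UMI marks 1 captured RNA molecule. The NK class held 4061 cells with an Ncr1 UMI, at least 2 UMIs of Ncr1 and Tyrobp together, and none of Cd3d, Cd3e, Cd3g, Lyz2 or Csf1r. Cells with at least 2 UMIs of the 3 CD3 genes were split into Trdc T (221 cells with a Trdc UMI), CD8 T (579 further cells with a Cd8a or Cd8b1 UMI) and other T (1219 cells). Cells expected to lack the receptors served as reference, namely 2424 B cells and 389 myeloid cells. The myeloid cells did not lack Klrk1, as given further on. Median UMIs per cell were 5657 in NK, 13918 in Trdc T, 11855 in CD8 T, 9124 in other T and 9266.5 in B cells. Levels are summed UMIs scaled to 1000000 UMIs of the class (CPM) with an exact Poisson 95% interval, and shares are cells with a UMI with an exact binomial interval. Both intervals cover counting error only.

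The NK class carried its markers, with Gzma in 97.5%, Prf1 in 94.7% and Eomes in 48.7% of cells, but a Trdc UMI in 22.6% and a Trac UMI in 14.5%. Of the other T-cell markers on the list, Trbc1 was in 64.0% of NK cells and 60.5% of other T cells, at 250 and 429 CPM. Trbc2 was in 29.1% of NK cells. The CD3 genes were absent by the gate. The Trdc T class did not look like gamma-delta T cells alone: 72.9% of its cells held a Trac UMI, which encodes the alpha chain of the other T-cell receptor, and 38.5% an Ncr1 UMI. The other gamma-delta markers of the list did not help. Trdv4 was in 5.43% of its cells but in 9.11% of NK cells, Sox13 was in 0.905%, and Trgc1 and Trgc2 were not in the table. The class is called by its rule here. Scrublet, which marks cells resembling a mix of 2 cells, marked 43.0% of Trdc T, 18.8% of other T, 15.4% of CD8 T and 9.83% of NK cells. T-cell values are therefore also given for T cells with neither a mark nor an Ncr1 UMI (93 Trdc T, 479 CD8 T and 922 other T cells), where they were computed.

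Of the genes, 8 lie within 900.5 kb of chromosome 6, from position 128778485 to 129678973 of GRCm38, a stretch of 25 protein-coding genes that is part of the NK gene complex. Klrg1 lies apart on the same chromosome, at chr6:122270596-122282882 on the minus strand, 6496 kb before the others. Klrb1c and Klrb1b each overlap the annotated gene Gm44511 on their own strand, and Klrb1f overlaps Gm43992 and Gm44000 on the other strand. Words of 90 bases in the last 600 bases of each transcript were looked for among 14 genes of these families. The counts were not symmetric: 210 words of Klrc1 occurred in Klrc2, and 203 words of Klrc2 in any other family gene. The shares are therefore not the overlap of 2 transcript ends. For Klrc1 16.2% of the words also occur in Klrc2, for Klrc2 10.3% occur in another family gene, most often Klrc3, for Klrb1c 0.930% occur in Klrb1a, and for the other 6 genes none is shared. The division of reads between Klrc1, Klrc2 and Klrc3 is thus less certain than the other values.

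RefSeq promoters (250 bases before to 50 after the start, GRCm38.p6) were matched for 7 of the 9 genes, not for Klrd1 and Klrg1. Klrc2, Klre1 and Klrb1b had 2 entries each, of which 1 is used here. The promoters of 2 pairs are shown, because Klrk1 and Klre1 varied together over the pools described further on and Klrc1 and Klrc2 had the highest odds ratio for detection in the same NK cell. The Klrk1 promoter is at chr6:129623815-129624114 (minus strand), Klre1 at chr6:129577963-129578262 (plus strand), Klrc1 at chr6:129678924-129679223 (minus strand) and Klrc2 at chr6:129660547-129660846 (minus strand). Capitals mark the words CAGGAA (an Ets-type word) and TGTGGTT (a Runx-type word).
Klrk1: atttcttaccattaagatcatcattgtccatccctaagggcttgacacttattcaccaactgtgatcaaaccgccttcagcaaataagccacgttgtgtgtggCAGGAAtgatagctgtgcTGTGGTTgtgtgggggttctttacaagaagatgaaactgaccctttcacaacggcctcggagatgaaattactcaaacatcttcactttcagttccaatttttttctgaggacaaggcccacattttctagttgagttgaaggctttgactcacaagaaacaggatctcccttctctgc
Klre1: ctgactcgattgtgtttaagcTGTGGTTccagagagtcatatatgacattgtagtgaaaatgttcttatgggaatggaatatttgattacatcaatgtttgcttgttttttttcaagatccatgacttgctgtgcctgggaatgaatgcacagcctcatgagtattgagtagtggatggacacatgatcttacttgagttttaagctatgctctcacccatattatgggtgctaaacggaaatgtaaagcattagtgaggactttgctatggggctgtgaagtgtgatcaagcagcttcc
Klrc1: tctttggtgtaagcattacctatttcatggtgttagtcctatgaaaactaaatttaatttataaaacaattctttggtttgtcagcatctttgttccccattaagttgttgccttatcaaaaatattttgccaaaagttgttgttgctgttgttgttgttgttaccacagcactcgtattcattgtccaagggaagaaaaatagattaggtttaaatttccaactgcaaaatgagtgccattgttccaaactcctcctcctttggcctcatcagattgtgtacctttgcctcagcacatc
Klrc2: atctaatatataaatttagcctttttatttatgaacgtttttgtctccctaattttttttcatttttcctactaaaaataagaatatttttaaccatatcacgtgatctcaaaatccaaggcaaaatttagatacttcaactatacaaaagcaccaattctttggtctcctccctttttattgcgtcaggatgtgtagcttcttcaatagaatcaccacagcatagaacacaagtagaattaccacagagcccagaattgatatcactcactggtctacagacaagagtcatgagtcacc

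Each word was searched on both strands and no matches overlapped. The Runx-type word TGTGGTT, or AACCACA on the other strand, was in 2 of the 7 promoters, Klrk1 at 129 bases and Klre1 at 229 bases before the start, against 5.37% of 27025 promoters of this length. The Ets-type word CAGGAA, or TTCCTG, was in Klrk1 and Klrb1c, against 30.4% of all promoters. The T-box word GGTGTGA, or TCACACC, was in none of the 7 and in 3.96% of all. Over the 300 bases Klrb1b and Klrb1f were the most alike of the 21 pairs, with 71.9% identity over 260 aligned bases, while Klrc1 and Klrc2 reached 58.6%. A match describes these letters only.

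All 9 receptor genes had their highest level in the NK class. Of the 9, 8 were at least 4 times higher in NK than in other T cells, where 2.19% of 10579 genes reached that ratio, and the median log2 ratio was 2.91 for the receptors against 0.04 for all genes. Klrg1 was the exception, with a ratio of 2.79 (95% interval 2.43 to 3.20). Next to NK, the level was highest in Trdc T for 8 genes and in other T for Klrg1. A UMI stands for 1 captured transcript and is not scaled for length, and genes are compared mainly across classes. Where UMIs of 2 genes are set side by side below, differences in capture between the genes were not measured.

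Among the NKG2 receptors, Klrk1 was found at 968 CPM in NK (957 to 979), 312 in Trdc T (295 to 331), 111 in CD8 T (104 to 119), 128 in other T (122 to 134) and 20.0 in B cells (18.3 to 21.8). A Klrk1 UMI was present in 96.4% of NK cells and in 4.95% of the deeper B cells. Klrd1, the shared partner chain, stood at 151 CPM in NK (147 to 156), 64.5 in Trdc T, 41.4 in CD8 T, 25.5 in other T and 3.09 in B cells, and was detected in 52.0% of NK cells. All 4 classes were separated by their counting intervals for both genes, with CD8 T below other T for Klrk1 and above it for Klrd1. For Klrk1 the order of CD8 T and other T turned in cells with neither a mark nor an Ncr1 UMI, at 69.5 (63.0 to 76.5) and 58.8 (53.8 to 64.0), with overlapping intervals.

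The inhibitory chain Klrc1 reached 153 CPM in NK (148 to 157), 110 in Trdc T (99.6 to 121), 52.8 in CD8 T (48.0 to 57.9) and 28.4 in other T (25.7 to 31.2), against 3.12 in B cells. It had the smallest ratio of NK to Trdc T of the 9, 1.39 (1.25 to 1.54). The activating chain Klrc2 was at 153 CPM in NK, 76.5 in Trdc T, 29.4 in CD8 T and 20.4 in other T. Although the summed levels of Klrc1 and Klrc2 in NK were within counting error of each other, Klrc1 was detected in 36.7% of NK cells and Klrc2 in 52.5%. Had the UMIs of each gene been spread over the cells in proportion to depth, about 60.4% and 60.6% of cells would have held one. Klrc1 UMIs were therefore gathered in fewer cells, with 3.00 UMIs per cell that held any, against 2.10 for Klrc2. Klre1 stood at 260 CPM in NK (255 to 266), 94.7 in Trdc T, 38.6 in other T and 31.9 in CD8 T, and was in 71.5% of NK cells.

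The NKR-P1 genes had the steepest differences. Klrb1b was at 157 CPM in NK (153 to 162), 36.6 in Trdc T, 9.20 in other T and 8.18 in CD8 T, 17.1 times higher in NK than in other T (14.4 to 20.5) and 9th by this ratio among all genes tested. Klrb1f was at 65.8 CPM in NK, 14.7 in Trdc T, 5.22 in CD8 T and 4.95 in other T, a ratio of 13.3. Klrb1c was at 120 CPM in NK, 25.1 in Trdc T, 9.13 in other T and 4.74 in CD8 T, a ratio of 13.2. CD8 T and other T could not be separated for Klrb1b and Klrb1f, whose intervals overlapped. Like Klrc1, Klrb1b was gathered in fewer cells than its level would give by depth, 38.4% against 61.4%. Klrg1 was at 48.3 CPM in NK (45.8 to 50.9), 17.3 in other T (15.3 to 19.6), 9.63 in Trdc T (6.74 to 13.3) and 8.30 in CD8 T (6.47 to 10.5), and the last 2 intervals overlapped.

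**Figure D1:**
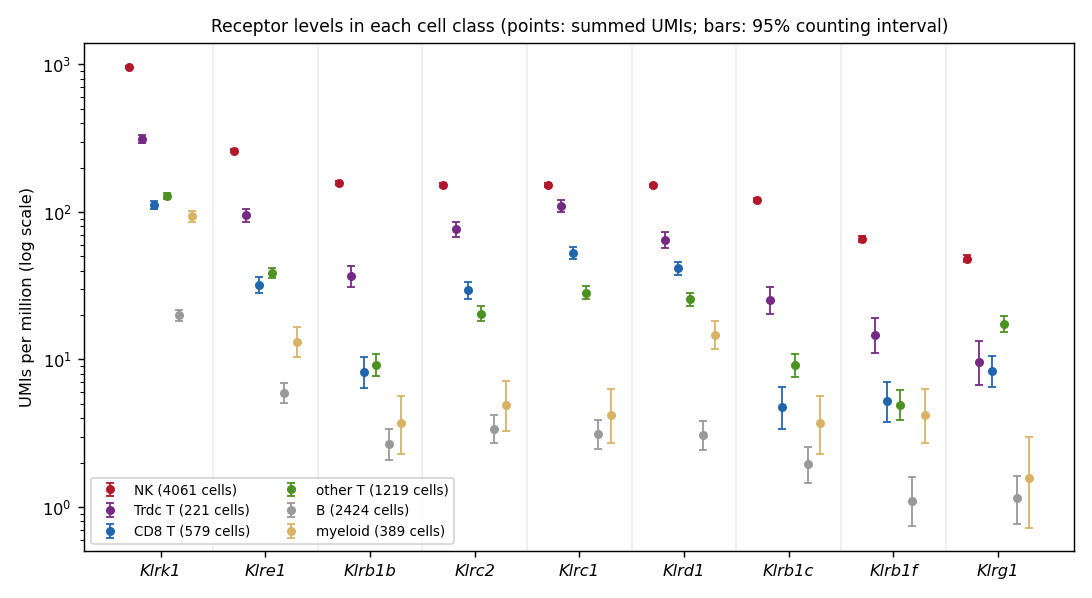
Level of each receptor gene in 6 cell classes, as CPM on a log axis. Points are summed UMIs and bars exact Poisson 95% intervals. The NK points lie above all other classes for each gene, from 968 for Klrk1 to 48.3 for Klrg1, and B cells lie at 20.0 or less.

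Part of the T-cell signal lay in marked cells and in T cells with an Ncr1 UMI. Whether unmarked T cells with an Ncr1 UMI are mixed cells or T cells that transcribe Ncr1 was not tested. Klrk1 in Trdc T was 312 CPM over all cells, 280 without marked cells and 185 (160 to 213) when cells with an Ncr1 UMI were left out as well, which kept 93 cells. Over the same steps Klrb1b in Trdc T went from 36.6 to 17.2 and 4.79 CPM, Klrb1c from 25.1 to 20.3 and 7.66, and Klrb1f from 14.7 to 9.54 and 1.92. Klrc1 went the other way, from 110 to 163 and 181 CPM (156 to 209). Unmarked NK cells held Klrc1 at 172 CPM (167 to 177), so in the 93 cells Klrc1 was within counting error of NK, while Klrk1 was 1086 in unmarked NK cells. Klrd1 and Klrc2 changed little, at 65.1 and 78.5 CPM. In the 27 such cells that had no Trac UMI either, Klrk1 was at 273 CPM (211 to 348), Klrc1 at 235 (178 to 305), and no Klrb1f or Klrg1 UMI was found. The upper limit of the interval for these 2 genes was 15.5 CPM.

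In CD8 T cells without a mark or an Ncr1 UMI, 479 in number, Klrk1 was at 69.5 CPM (63.0 to 76.5), Klrb1c at 0.657 (0.179 to 1.68) and Klrb1b at 2.30, while Klrc1 was at 50.1 (44.6 to 56.1), Klrd1 at 39.9 and Klrg1 at 7.39. In other T cells the same step left Klrk1 at 58.8 CPM, Klrc1 at 24.1, Klrg1 at 15.8 and Klrb1c at 1.90. In unmarked B cells Klrk1 was 4.53 CPM and Klrc1 0.485, and the 102 marked B cells held 413 of the 525 Klrk1 UMIs of the class. Unmarked myeloid cells, however, held Klrk1 at 78.8 CPM (71.4 to 86.7) and in 28.4% of cells, with Klrd1 at 13.6 and Klrc1 at 3.02. This Klrk1 level was above that of the remaining other T cells. Its interval overlapped that of the remaining CD8 T cells (63.0 to 76.5). The median log2 ratio of NK to other T was 2.91 over all cells, 3.34 without marked cells and 4.15 with both steps, and the number of genes highest in NK was 9, 9 and 8. Because the Ncr1 step drops T cells by an NK gene and drops no NK cells, it favours a higher ratio by its design.

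**Figure D2:**
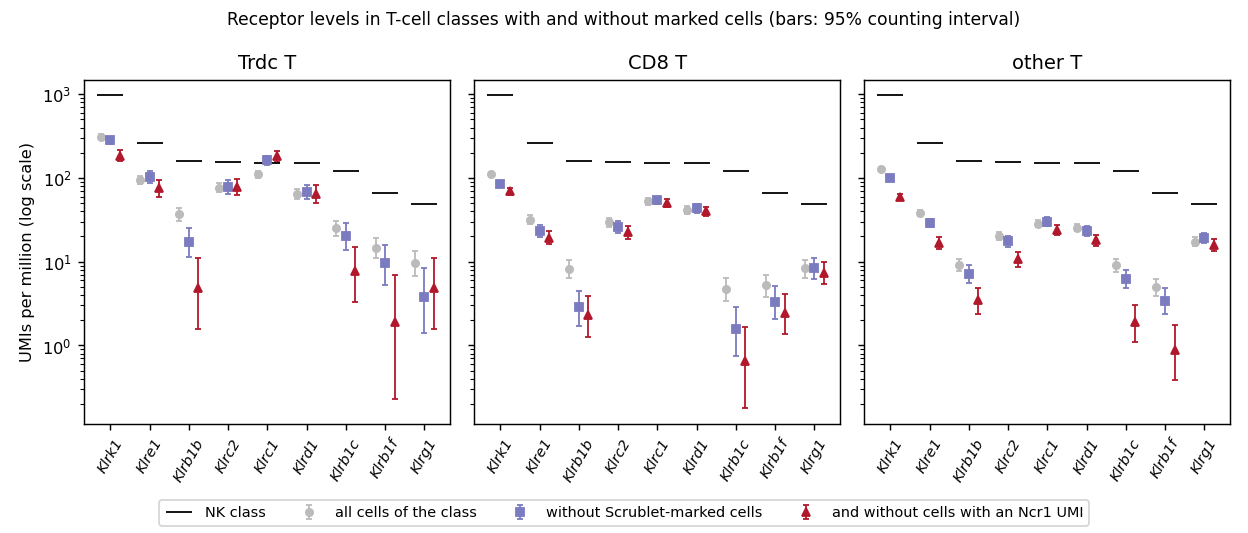
Receptor levels in the 3 T-cell classes over all cells, without cells marked by Scrublet, and without T cells holding an Ncr1 UMI, as CPM on a log axis with 95% counting intervals and the NK level as a black line. The 3 Klrb1 genes drop with each step, to 7.66 or less in Trdc T, whereas Klrc1 in Trdc T reaches 181 and meets the NK line.

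The mix of receptors differed between classes. For every 100 Klrk1 UMIs, NK cells held 15.8 of Klrc1, Trdc T 35.2, CD8 T 47.3, other T 22.2, B cells 15.6 and myeloid cells 4.50. For Klrd1 the values were 15.6 in NK, 37.1 in CD8 T, 15.4 in B cells and 15.8 in myeloid cells. Per 100 Klrk1 UMIs, CD8 T held more Klrd1 and Klrc1 and less of the 3 Klrb1 genes than NK cells. The CPM of each of these genes, and of Klrk1 itself, was lower in CD8 T. Klrg1 stood at 4.99 per 100 Klrk1 UMIs in NK and at 13.6 in other T. In T cells with neither a mark nor an Ncr1 UMI these differences were larger, with Klrc1 at 97.9 in Trdc T, 72.1 in CD8 T and 41.0 in other T against 15.8 in unmarked NK, and Klrg1 at 26.9 in other T. In unmarked B cells, which held 112 Klrk1 UMIs, Klrc1 was at 10.7 and Klre1 at 37.5, against 15.6 and 29.7 in all B cells.

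A fixed list of 46 partners, adaptors, ligands and pathway genes was read beside the receptors. Of these, 40 were in the table, 12 were at least 4 times higher in NK than in other T, and none was 4 times lower. Among all genes with at least 100 UMIs, 2.19% of 10579 were as much higher. The list did not use that floor, and Klrb1, for example, had 59 UMIs in NK and 3 in other T. All 5 receptor relatives in the table were among the 12. Klri2, the partner of Klre1, was at 315 CPM in NK and 31.6 in other T, a ratio of 9.98. Klri1, the alternative partner, was at 7.82 CPM in NK, and Klrc3, an NKG2 chain, at 20.7 against 1.53 in other T, a ratio of 13.5. Of the 3 adaptors, Tyrobp (596 against 79.4 CPM) and Fcer1g (743 against 96.1) were 4 times higher, whereas Hcst was at 154 CPM in NK, 160 in Trdc T, 163 in CD8 T and 138 in other T. Tyrobp was part of the NK gate.

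Of the 19 ligand genes, 14 were in the table, 5 of them had 3 UMIs or fewer in NK cells, and 1, H60b, was 4 times higher in NK but rests on 17 UMIs against 2 in other T. H2-T23, the ligand of Klrd1 heterodimers, was found in every class, at 183 CPM in NK, 118 in other T and 133 in B cells. Clec2d, the Klrb1b ligand, was at 204 CPM in NK, 90.8 in other T and 83.3 in B cells, and Raet1e at 65.6, 43.9 and 67.6. Cdh1 and Cdh2, ligands of Klrg1, had 3 UMIs each in NK. None of the 6 signalling genes passed the 4-fold line in either direction, with Syk at 67.0 CPM in NK and 25.8 in other T and Zap70 at 67.4 and 144. Among 12 transcription and maturation genes, Eomes, Itgam, Itga2 and Cd244a were at least 4 times higher in NK. Cd226 had the lowest ratio, 0.253 (0.219 to 0.292), at 9.90 CPM in NK and 39.2 in other T. Its interval crosses the 4-fold line. Tcf7 (25.1 against 46.5 CPM) and Cd27 (40.2 against 72.8) were lower by less than 4 times.

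NK cells usually held several of the receptors at once. The mean was 4.33 of 9 genes per NK cell (SD over cells 1.70), 67.0% of cells held 4 or more (65.5 to 68.4), and 10 cells held none. The mean was 3.31 in Trdc T, 1.32 in CD8 T, 1.009 in other T, 0.681 in myeloid and 0.177 in B cells. Because NK cells were the shallowest class, cells were also thinned to 2000 UMIs each, leaving out 36 NK and 7 other T cells. The mean then was 2.62 in NK, 1.23 in Trdc T, 0.430 in CD8 T, 0.396 in other T, 0.255 in myeloid and 0.0545 in B cells. The order of the classes was the same, and 25.5% of NK cells held 4 or more. Over T cells with neither a mark nor an Ncr1 UMI the full-depth mean was 2.23 in Trdc T, 0.937 in CD8 T and 0.533 in other T.

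**Figure D3:**
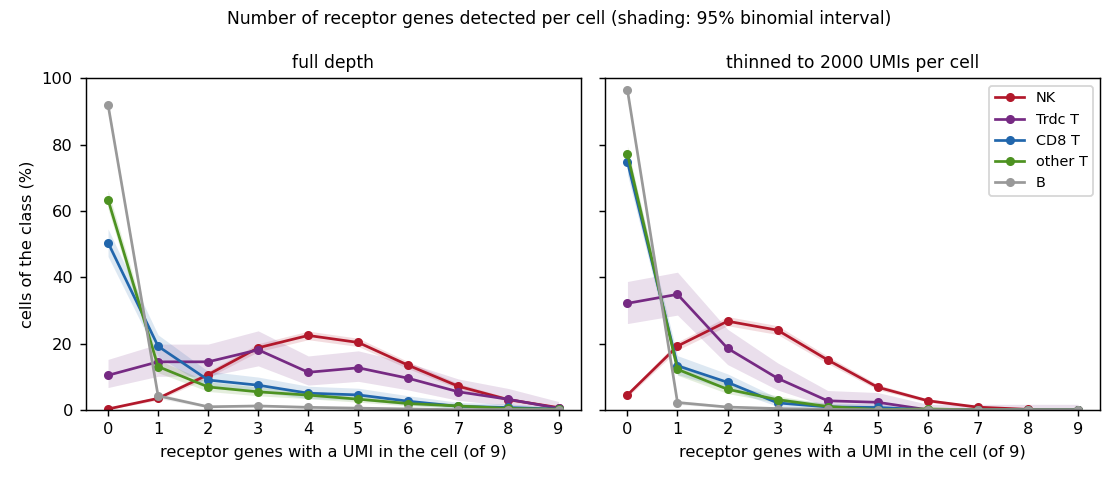
Share of cells, in percent, by the number of receptor genes with a UMI, at full depth and after thinning each cell to 2000 UMIs. Shading is the exact binomial 95% interval. NK cells peak at 4 genes at full depth and at 2 after thinning, while CD8 T, other T and B cells peak at 0.

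Many combinations occurred in NK cells. Of 512 possible sets of the 9 genes, 328 occurred and 71 of these in 1 cell only. The most frequent set, Klrk1 with Klre1 alone, was in 4.38% of cells, followed by Klrk1, Klrd1 and Klre1 in 3.99% and the same set with Klrc2 in 3.30%. This depended on depth: at 2000 UMIs per cell Klrk1 alone was the most frequent set, in 14.1% of cells, and Klrk1 with Klre1 followed in 7.63%. In CD8 T cells 50.4% held none of the genes, and the next sets were Klrd1 alone in 8.81%, Klrk1 alone in 4.32% and Klrc1 alone in 2.42%. In other T cells 63.4% held none, and Klrk1 alone (4.35%) and Klrg1 alone (3.28%) followed. In Trdc T 10.4% held none. Without marked cells and cells with an Ncr1 UMI these shares were 56.6% in CD8 T, 72.9% in other T and 19.4% in Trdc T.

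Pairs of genes were compared within 10 strata of NK cells of like depth, since deeper cells show more of every gene. Of 36 pairs, 31 had an odds ratio above 1, the median was 1.28, and 5 reached 2. The highest was Klrc1 with Klrc2 at 3.36: both were found in 1062 cells where 797 would be expected, and 71.3% of Klrc1-positive cells held Klrc2 against 41.7% of the others. The reads of these 2 genes can be confused in part, as given above. Klrb1c with Klrb1b reached 3.02 (837 cells against 593 expected), Klrb1c with Klrg1 2.50, Klrb1b with Klrg1 2.40 and Klrc1 with Klrb1b 2.38. Klrb1f paired most with Klrb1c, at 1.84.

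Klrd1 and Klrc1 were not found in the same cell more often than depth would give. That pair had an odds ratio of 0.898, with 755 cells against 780 expected, and Klrd1 with Klrc2 had 1.27, although the proteins form heterodimers. Of the Klrc1-positive or Klrc2-positive cells, many had no Klrd1 UMI: 12.6% of all NK cells held both chains without Klrd1 and 13.6% held all 3. The lowest odds ratio was 0.837, for Klrk1 with Klrc1. Klrk1 was detected in 3915 NK cells, so its odds ratios rest on few cells without it. Klrc1 was in 36.6% of cells with Klrk1 and in 37.7% (29.8 to 46.1) of those without. In NK cells with at least 5 UMIs of Klrc1 and Klrc2 together, 675 in number, 108 drew over 80% of them from Klrc1, 54 under 20%, and 513 lay between.

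**Figure D4:**
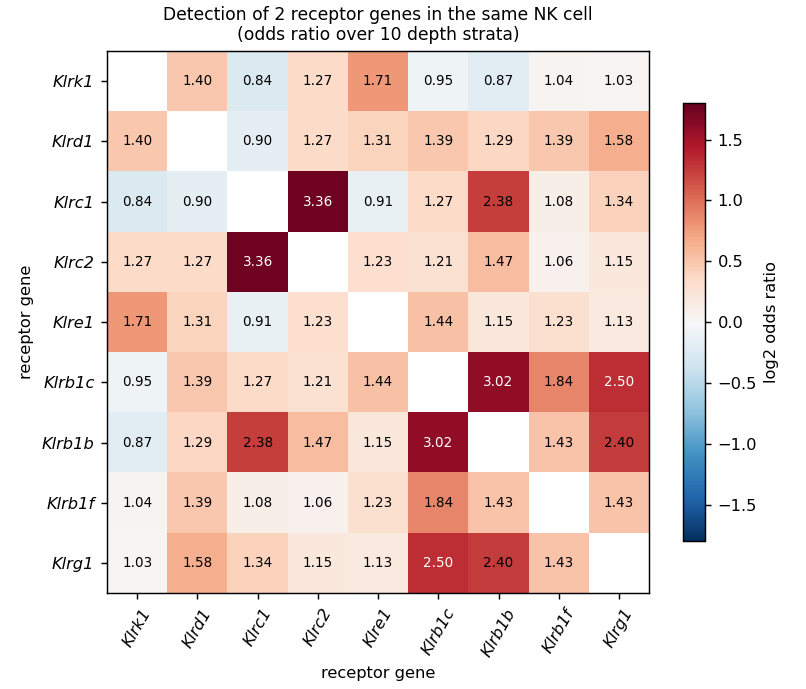
Odds ratio for detection of 2 receptor genes in the same NK cell over 10 depth strata, printed in each field and coloured on a log2 scale. Red fields above 1 form a block of Klrb1c, Klrb1b and Klrg1 (2.40 to 3.02) beside the single highest pair, Klrc1 with Klrc2 (3.36).

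In T cells the odds ratios of the pairs were higher than in NK cells. The median odds ratio was 3.05 in Trdc T, over the 35 pairs for which it could be computed, 6.00 in CD8 T and 8.64 in other T, and all 36 pairs exceeded 2 in both CD8 T and other T. In T cells with neither a mark nor an Ncr1 UMI the medians were 3.22 over 25 pairs in Trdc T, 6.13 over 35 pairs in CD8 T and 9.16 over 36 pairs in other T, and 30 and 33 pairs reached 2 in CD8 T and other T. Pairs with rare genes rest on few cells there. Klrb1c had 4 UMIs in these CD8 T cells, and Klrb1f had 8 in other T and 2 in Trdc T. Among the 61 CD8 T cells with at least 5 UMIs of Klrc1 and Klrc2 together, 6 held Klrc1 only and none Klrc2 only. Of all Klrc1 and Klrc2 UMIs of the class, Klrc1 gave 64.2% in CD8 T (60.5 to 67.8) and 49.9% in NK (48.9 to 50.9). Without marked cells and T cells with an Ncr1 UMI these were 69.0% and 50.1%.

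NK cells that held Klrb1c or Klrg1 also differed in maturation genes. Itgam, the CD11b chain that rises as NK cells mature, was 1.88 times higher in Klrb1c-positive cells and 1.89 times higher in Klrg1-positive cells than in cells without a UMI of that gene. Cd27, a marker of less mature NK cells, was at 0.581 and 0.518 of the level, and Tcf7, a transcription factor of early stages, at 0.605 and 0.459. The cytotoxic genes Prf1 and Nkg7 were 1.33 and 1.45 times higher in Klrb1c-positive cells, and Nkg7 1.46 times higher in Klrg1-positive cells. Median depth was 5274.5 UMIs with and 5871 without Klrb1c, and 5746 and 5633.5 with and without Klrg1. Sorting by CD11b touches Itgam directly, and its part in these ratios was not tested.

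Cells with a Klrc1 UMI differed otherwise. Klrc2 was 2.40 times higher in them and Il7r 1.54 times, and for Cd226, an activating receptor, the 95% interval of the ratio was 2.71 to 4.55, whereas Klra8, the Ly49H receptor, was at 0.605 and Klri2 at 0.735 of the level in Klrc1-negative cells. Cd226 was 3.00 times higher in Klrb1b-positive cells, and Itgam did not move with Klrc1 (1.04). Cd226 was low in NK cells altogether, at 9.90 CPM.

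The relation to Ifng was read by the number of Ifng UMIs per cell. In NK cells 1163 cells had none, 1360 had 1 to 4, 998 had 5 to 19 and 540 had 20 or more, and these 540 cells held 70.3% of all NK Ifng UMIs. Receptor levels were set as CPM of the UMIs other than Ifng. All 9 receptors were lower in NK cells with 20 or more Ifng UMIs than in those with none, and 4 of them, Klrb1c, Klrg1, Klrb1b and Klrb1f, by at least 1.5 times, where 7.75% of 7870 genes were that much lower. None was 1.5 times higher, against 2.36% of all genes. The median log2 ratio was -0.45 for the receptors and -0.13 for all genes.

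Klrb1c went from 158 CPM at 0 Ifng UMIs over 132 and 109 to 60.3 at 20 or more, a ratio of 0.383 (0.335 to 0.436). Klrg1 went from 63.9 over 53.0 and 42.2 to 26.1, a ratio of 0.409 (0.333 to 0.499). Klrb1b went from 190 over 179 and 145 to 88.3, a ratio of 0.466 (0.417 to 0.520), and Klrb1f from 74.7 to 44.2, a ratio of 0.591 (0.502 to 0.694). All 4 genes had their lowest level in the highest Ifng class.

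The ratios of the NKG2 genes were nearer to 1. Klrk1 went from 1067 CPM to 852, a ratio of 0.799 (0.769 to 0.830), Klrc1 from 168 to 122 (0.730), Klrd1 from 172 to 126 (0.734), Klrc2 from 167 to 135 (0.812) and Klre1 from 281 to 238 (0.845). Within the 4 hashtags the ratio was below 1 in all 4 for 8 genes and in 3 of 4 for Klrc2. It ranged from 0.130 to 0.588 for Klrb1c and from 0.616 to 0.783 for Klrk1. Only for Klrb1c, Klrb1b and Klrk1 did the interval stay below 1 under every hashtag. Under hashtag 11 the interval crossed 1 for Klrg1 (0.536 to 1.77) and Klrb1f (0.485 to 1.17). Klre1 was at 0.988 under hashtag 9 (0.784 to 1.24). The direction differed in the deepest cells for 6 genes. In the deepest of 4 equal groups of NK cells by total UMIs the ratio was 1.13 for Klrk1, 1.22 for Klrc1, 1.20 for Klrd1, 1.19 for Klrc2, 1.24 for Klre1 and 1.23 for Klrb1f, while Klrb1c (0.742), Klrb1b (0.785) and Klrg1 (0.485) stayed below 1. The interval for Klrb1f crossed 1 (0.921 to 1.65), and that for Klrc2 reached down to 1.00. NK cells marked by Scrublet had a median of 13126 UMIs against 5355 in unmarked ones, and Klrk1 at 505 against 1086 CPM. The part of marked cells in the deepest group was not tested.

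Other genes moved with Ifng in NK cells as well. Among genes outside the receptors, Itga2 was at 0.443, Fcer1g at 0.636 and Itgam at 0.639 of the level in cells without Ifng, while Cd27 was 2.34 times and Zap70 2.30 times higher. Trac was 3.42 times higher, at 57.9 against 16.9 CPM. The 589 NK cells with a Trac UMI held Klrb1c at 0.477, Klrg1 at 0.480, Klrb1b at 0.539 and Klrk1 at 0.909 of the level of the other NK cells, and Ifng at 1.74 times. Over the NK cells without a Trac UMI, the ratio of cells with 20 or more Ifng UMIs to those with none was 0.391 for Klrb1c (0.336 to 0.455), 0.451 for Klrg1, 0.481 for Klrb1b, 0.631 for Klrb1f and 0.774 for Klrk1. NK cells with a Trbc1 or Trbc2 UMI were not left out in this step.

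In CD8 T cells the relation ran the other way. Klrk1 went from 22.4 CPM in the 232 cells without Ifng over 83.2 and 163 to 205 in the 132 cells with 20 or more, a ratio of 9.16 (7.04 to 12.1). Klrc1 went from 10.3 over 53.5 and 72.1 to 90.3, a ratio of 8.76 (5.93 to 13.4), Klrc2 from 5.34 to 55.4, a ratio of 10.4 (6.07 to 19.1), and Klre1 from 6.40 to 47.9, a ratio of 7.48 (4.53 to 13.1). Klrd1 went from 26.3 to 50.8, a ratio of 1.93 (1.43 to 2.61). Of all genes tested in this contrast 9.02% were at least 1.5 times higher and 4.27% as much lower.

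The remaining receptors were rare in CD8 T cells. Klrb1b had 4 UMIs in cells without Ifng and 32 in those with 20 or more, Klrb1c 2 and 29, Klrb1f 1 and 24, and Klrg1 18 and 24, the last a ratio of 1.56 with an interval across 1 (0.812 to 3.05). Without marked cells and cells with an Ncr1 UMI, which left 90 and 218 cells, the ratio was 8.35 for Klrk1, 9.62 for Klrc1, 11.1 for Klrc2, 6.37 for Klre1 and 1.89 for Klrd1, and Klrb1c had 2 UMIs on each side. Within the 4 hashtags Klrk1 was higher with Ifng in all 4, by 4.05 to 113 times, and Klrc1 by 3.21 to 67.8 times, the upper values resting on 1 UMI in the cells without Ifng. Leaving out 1 hashtag at a time among cells with a called hashtag, the ratio was 7.41 (without hashtag 12) to 19.5 (without hashtag 10) for Klrk1 and 5.40 (without hashtag 9) to 15.5 (without hashtag 11) for Klrc1. For Klrc2 it was 6.36 without hashtag 9 and 79.7 without hashtag 11, the latter on 1 UMI in cells without Ifng. For Klrg1 it was 1.59 without hashtag 9 and 1.96 without hashtag 11, but 0.753 without hashtag 10 and 0.683 without hashtag 12, with all 4 intervals across 1. Median depth was 9826.5 UMIs in cells without Ifng and 14625.5 in those with 20 or more.

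The remaining T cells differed by gene. In other T cells without a mark or an Ncr1 UMI, Klrc1 was 4.72 times higher (3.19 to 6.90) in the 74 cells with 20 or more Ifng UMIs than in the 632 with none, Klrk1 1.87 times and Klre1 2.76 times, while Klrg1 had a ratio of 0.872 with an interval across 1. In all Trdc T cells Klrk1 was 1.98 times (1.60 to 2.48) and Klre1 2.54 times higher, Klrc1 was at 0.710 (0.529 to 0.959), and 6.45% of all genes were 1.5 times higher and 6.56% as much lower. In the 15 and 38 Trdc T cells without a mark or an Ncr1 UMI, the intervals for Klrk1, Klrd1, Klrc1, Klrc2, Klre1, Klrb1c and Klrb1b all included 1.

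**Figure D5:**
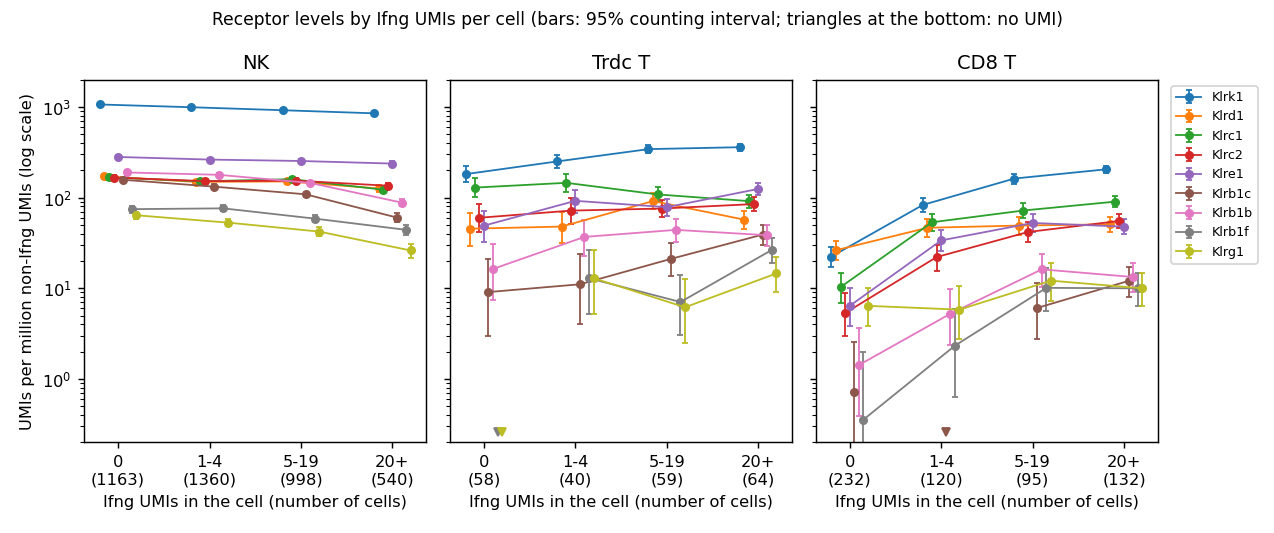
Receptor levels by the number of Ifng UMIs in the cell, as CPM of the UMIs other than Ifng on a log axis, for NK, Trdc T and CD8 T cells, with the number of cells under each class and 95% counting intervals. Lines slope down in NK, most for Klrb1c (158 to 60.3), and up in CD8 T, for Klrk1 from 22.4 to 205.

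Seen from the receptor side at equal depth, the share of NK cells with an Ifng UMI differed by less than 6 percentage points with any gene. After thinning to 2000 UMIs it was 53.7% with and 52.1% without Klrk1, and 48.1% with (43.0 to 53.2) and 54.0% without Klrg1 (52.4 to 55.6). The Ifng level was 907 CPM in cells with both Klrb1c and Klrb1b and 1768 in cells with neither.

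The hashtags give the only view of spread within the pool, and what each marks is not known here. They were called in 41.5% of NK cells, 341 to 480 per hashtag. The ratio of the highest to the lowest hashtag was 1.06 for Klre1 (271 to 286 CPM), 1.10 for Klrb1b (153 to 168), 1.19 for Klrk1 (914 to 1088), 1.20 for Klrc1 (147 to 177) and Klrg1 (40.3 to 48.5), 1.34 for Klrb1c (93.9 to 126), 1.36 for Klrd1 (131 to 178), 1.37 for Klrc2 (144 to 198) and 1.46 for Klrb1f (58.2 to 84.9). For Klre1, Klrb1b and Klrg1 the intervals of the extreme hashtags overlapped. Ifng differed by 1.62. All 9 genes were highest in NK under hashtags 9, 10 and 12, and 8 under hashtag 11, where Klrc1 was at 216 CPM in Trdc T and 177 in NK. That Trdc T value rested on 71 UMIs of 23 cells, and its interval (169 to 273) overlapped that of NK (163 to 192). In CD8 T cells Klrk1 ranged from 41.1 CPM under hashtag 12 to 219 under hashtag 9, and Ifng from 1260 to 3540 under the same hashtags. The NK marker Ncr1 was at 8.74 CPM under hashtag 12 and 27.9 under hashtag 9, and lowest under hashtag 11, at 1.93. In CD8 T cells with neither a mark nor an Ncr1 UMI, Klrk1 was at 5.04 CPM under hashtag 12 (1.64 to 11.8) and 139.8 under hashtag 9 (114 to 169.9), and Ifng at 1059 and 2967.

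The genes most alike to each receptor were read over the 16 pools of 4 classes by 4 hashtags, from log2(CPM + 1) of 9778 genes. These pools share 1 library, differ in depth and include both NK and T cells, and no correlation within a class was computed. Klrk1 was nearest to Metrnl (Pearson r = 0.977), Klre1 (0.973) and Adamts14, and Klre1 to Klrk1, Txk and Cd244a. Klrd1 was nearest to Eomes (0.941), Klrc1 to Klrc2 (0.954), Klrc2 to Ccl5 (0.958) and Klrc3, Klrb1b to Tbc1d2b (0.979), Klrb1c to Cdc20b (0.917), Klrb1f to Rlf (0.926) and Klrg1 to Ppp2r5c (0.943). The values for Ifng were 0.411 with Klrc1, 0.200 with Klrk1 and -0.03 with Klrg1.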

How the data were processed

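Spleen cells of 3 conditions were measured as 1 pool, with separate libraries for transcripts and hashtags (10x 3′ chemistry). The authors deposited raw UMI counts per gene, hashtag and barcode made with Cell Ranger, not normalized. The submitters' processing notes name version 7.2.0 and builds GRCm38 and mm10, and the header of the matrix 7.0.0. Cells were filtered and assigned to classes as stated above.

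Levels are summed UMIs scaled to 1000000. With 1 pooled sample there was no test and no p-value. Exact Poisson and Clopper-Pearson intervals at 95% cover counting error only. Ratios across all genes used genes with at least 100 UMIs in both groups together. Depth was handled by thinning to 2000 UMIs and by Mantel-Haenszel odds ratios over 10 strata. Scrublet in scanpy 1.11.5, set to an expected rate of 0.1, marked likely doublets, which were kept in the main values and removed as an alternative. Hashtags were called with HTODemux (Seurat 5.3.0, R 4.3.3) at a positive quantile of 0.85, for NK and T cells separately. Python 3.11.15, NumPy 2.4.6, SciPy 1.17.1 and matplotlib 3.10.9 were used. The scripts were tested on simulated data. Gene positions come from GENCODE for GRCm38, whose identifiers matched those of the table, and promoters from RefSeq.

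The named genes are the 9 receptors, Ifng, the genes of the gates and marker lists, the 46 partner and pathway genes, and for each receptor the 3 genes most alike over the 16 pools. The receptors and lists were chosen with earlier results of these data known. Alternatives were stricter cell filters and gates, the ribosomal limit of 60%, doublets, single hashtags, thinning to 2000 or 1000 UMIs, means over cells, other strata and Ifng classes, and each hashtag left out. Leaving out NK cells with Trac, the split into 4 depth groups, leaving out T cells with Ncr1, and the values over such T cells were chosen after seeing the data.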

Additional observations from a re-analysis of the deposited data

How the results depend on the processing

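Beside the 9 genes highest in NK, the median log2 ratio of NK to other T (2.91) moved to 3.34 without Scrublet doublets, 3.09 when cells were thinned to 1000 UMIs and 4.15 with unmarked cells and T cells free of Ncr1. Dropping T cells by an NK gene favours a rise of this ratio by design. Leaving out 1 hashtag at a time gave 2.87 to 3.27 for this ratio and 8 or 9 genes highest in NK (8 without hashtag 10). It gave 65.9% to 69.5% of NK cells with 4 or more receptors and 4 to 6 pairs with an odds ratio of 2 or more. In NK cells 4 to 6 receptors were then at least 1.5 times lower with Ifng. The share of NK cells with 4 or more receptors (67.0%) was 69.5% with the stricter gates, 25.5% at 2000 and 8.03% at 1000 UMIs per cell. The 5 pairs with an odds ratio of 2 or more became 3 at either depth. The 4 receptors at least 1.5 times lower with Ifng in NK cells became 0 when cells with 1 or more Ifng UMIs were set against cells with none, and 1 in the deepest of 4 depth groups of NK cells. In that group 6 log2 ratios turned positive, to 0.18 for Klrk1, 0.26 for Klrd1, 0.28 for Klrc1, 0.25 for Klrc2, 0.31 for Klre1 and 0.30 for Klrb1f, and the cause was not tested. The interval for Klrb1f there included no difference. No ratio of NK to other T (126 values) and no odds ratio that differed from 1 by 1.5 times (504 values in all) changed direction under its alternatives. However, 66 of the 126 ratios lay outside the counting interval of the main value. Of the 504 odds ratios, 9 moved by more than 1.5 times. In CD8 T cells the log2 Ifng ratio of Klrg1, 0.64 over all cells with an interval across 0, was -0.41 without hashtag 10 and -0.55 without hashtag 12, and those of the other receptors with a value stayed above 0. With 1 hashtag left out at a time these were 2.89 to 4.28 for Klrk1, 2.43 to 3.96 for Klrc1, 2.67 to 6.32 for Klrc2, 2.87 to 3.81 for Klre1 and 0.72 to 1.32 for Klrd1. The fold threshold mattered for the background: at 2 times, 9 receptors and 7.52% of genes were higher in NK, and with 20 UMIs per gene 8 receptors and 2.83%. No paired analysis was possible because the pool is 1 sample and no result comes from a test. Depth limits all shares, since Klrg1 at 48.3 CPM gives less than 1 UMI in an NK cell of median depth, 5657 UMIs.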
